A study of Mus musculus with 6 samples.

Results

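The genes described here are the protein-coding genes that start between 60 and 80 megabases of mouse chromosome 15 (build mm10) and were detected in thymic iNKT1 cells. A gene was taken when its mean over the 6 libraries was at least 1 CPM (the authors' reads scaled to a common library total). Genes named Il2rb, Rac2, Apol9a or Apol9b, and those whose names start with Ly6, Slc, Rpl, Rps, St3gal, Arhg, Nduf, Cox or Mgat, were left out. The deposited table listed 165 genes in this stretch, of which 146 were protein coding. Of these, 7 had a mean below 1 CPM and 14 were left out by name, which left 125 members among the 17985 genes of the table. Mean CPM chose the members, and the members nearest the limit were Csf2rb at 1.05 and Apol10a at 1.22 CPM, against 0.932 for Nptxr and 0.849 for Ly6f just outside it. By position they ran from Fam84b, which started at 60818994, to Pdgfb, which ended at 80014808, with 54 genes on the plus strand and 71 on the minus strand.

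Invariant natural killer T cells of type 1 (iNKT1) are thymic T cells that carry a semi-invariant antigen receptor, express the transcription factor T-bet (Tbx21) and make interferon gamma. All mice had a C57BL/6 background, a transgene that expresses Cre recombinase under control of Tbx21 (Tbx21CreTg) and a Cre-activated yellow fluorescent protein reporter (Rosa26-LSL-YFP), and were untreated. The control group (Ctrl) has no floxed Tgfbr2 in its labels, and the knockout group (cKO) carried in addition 2 floxed alleles of Tgfbr2 (Tgfbr2 F/F), which encodes a receptor subunit for the cytokine TGF-beta. Cre is thus present in every library, and recombination is limited to cells in which Tbx21 is or was active. The labels give no age or sex and do not say whether animals were pooled. Each group had 3 libraries of total RNA, described as independent replicates. Because the RNA came from bulk populations, fewer cells of a type and less RNA per cell cannot be told apart.

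Neighbouring genes are often read out together in mammals. Promoters that face away from each other can share a short control region, an enhancer can act on several genes of the same chromatin domain, and duplicated genes such as the apolipoprotein L family keep similar control regions. TGF-beta signals through SMAD proteins, which bind short DNA motifs and raise or lower transcription of nearby genes. In lymphocytes the best known genes of this stretch of chromosome 15 are Myc, a transcription factor of cell growth, and several signalling genes towards its distal end. The series compares iNKT1 cells with and without the floxed receptor gene, and the question put here is which neighbours in this stretch differed together between cKO and Ctrl.

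Depth lay between 28832779 and 68092478 reads a library, which puts 1 read at 0.0147 to 0.0347 CPM. Tgfbr2 itself (chr9:116087698-116175363, minus strand) was at 461, 461 and 425 CPM in Ctrl and at 289.8, 258 and 274 CPM in cKO, that is at 61.0% of Ctrl, and fell in the limma test (log2 fold change -0.71, SE 0.0831, adjusted p = 0.0207). Reads from parts of the gene outside the floxed exons can remain. Both replicate 3 libraries stood apart from the others: 4406 and 4590 genes were listed at 0 in them, against at most 5 elsewhere, and the first principal component (85.1% of the variance) separated them, while the second (7.27%) separated the groups. All 7 iNKT1 and T cell markers were in the table, with summed levels of 6051 to 7873 CPM in Ctrl and 6480 to 9094 in cKO. The B cell list summed to 4.32 to 11.4 CPM in Ctrl and 3.14 to 11.7 in cKO with 3 of 5 genes in the table, and the myeloid list to 2.02 to 12.4 and 2.16 to 12.1 with 5 of 7 genes, of which Csf1r and Emr1 were at 0 in replicate 3. The double-positive thymocyte list had 4 of 6 genes in the table, all with a higher mean in cKO and none past the test, with sums of 7.14 to 9.19 CPM in Ctrl and 10.2 to 14.9 in cKO. The part of these cells and of replicate 3 in the results was not tested, except where values without replicate 3 are given.

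Promoter sequences are shown for the genes in which they bear on a pair of neighbours. All 125 members matched a gene in RefSeq, and 40 of them had at least 1 promoter sequence in the RefSeq table used (GRCm38.p6, 250 bases before to 50 bases after the start). Smpd5, Oplah, Exosc4, Gpaa1 and Cyc1 are named only. Apol7b and Apol7e are near-identical copies of an apolipoprotein L gene that changed in opposite directions in the fit with replicate number as a block, and their promoters are printed to show how alike the control regions are. The first lies at chr15:77447411-77447710 on the minus strand and the other at chr15:77698639-77698938 on the plus strand. Capitals mark CAGAC, the SMAD half-site motif, or GTCTG, its reverse complement.
Apol7b: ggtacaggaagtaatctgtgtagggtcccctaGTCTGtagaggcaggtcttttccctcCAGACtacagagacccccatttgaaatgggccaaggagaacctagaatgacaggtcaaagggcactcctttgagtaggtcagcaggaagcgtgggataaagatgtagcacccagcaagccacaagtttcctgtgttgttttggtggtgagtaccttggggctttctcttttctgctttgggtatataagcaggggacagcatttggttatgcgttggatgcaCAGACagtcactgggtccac
Apol7e: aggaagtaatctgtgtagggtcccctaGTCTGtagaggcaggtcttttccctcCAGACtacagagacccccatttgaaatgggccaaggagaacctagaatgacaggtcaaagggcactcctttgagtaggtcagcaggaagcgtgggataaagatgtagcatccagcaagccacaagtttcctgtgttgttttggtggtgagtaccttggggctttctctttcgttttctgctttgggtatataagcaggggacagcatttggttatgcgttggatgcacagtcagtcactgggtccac
Of 295 aligned bases, 293 were identical (99.3%). The Apol7b window held 3 matches to CAGAC and the Apol7e window 2. The motif is common: 49.6% of all 32851 promoter windows of that length held it on either strand, as did 22 of the 55 windows of members (40.0%). The longer palindrome GTCTAGAC, the SMAD motif in both directions, was present in 0.213% of all windows, and among members in 2 overlapping windows of Pick1. The first, at chr15:79228923-79229222 on the plus strand, is printed because Pick1 belongs to a pair of neighbours described later; capitals mark the palindrome, which starts at base 290 of the window.
Pick1: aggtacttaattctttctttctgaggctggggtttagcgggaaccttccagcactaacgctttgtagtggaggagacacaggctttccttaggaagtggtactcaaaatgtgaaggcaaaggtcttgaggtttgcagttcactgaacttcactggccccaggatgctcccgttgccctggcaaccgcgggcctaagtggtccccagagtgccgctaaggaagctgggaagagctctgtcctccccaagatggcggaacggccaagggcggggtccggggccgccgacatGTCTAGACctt
GTCTAGAC does not hold CAGAC, so the 2 searches do not overlap. The other motifs searched on both strands were TCACACC (T-box), found in 3.98% of all windows and 1 of the 55 of members, and TGTGGT (RUNX), found in 16.8% and 7 of 55. TGANTCA (AP-1) was in 7.81% of all windows and 2 of 55, and CACGTG (E-box) in 7.15% and 4 of 55. These matches describe letters in the windows, not bound sites.

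Members as a whole lay slightly lower in cKO. The log2 fold change (cKO over Ctrl, on the log2(CPM + 1) scale) was below 0 for 87 of 125 members (69.6%), against 59.0% of the 15691 genes tested. The median was -0.10 for members (quartiles -0.25 and 0.02), -0.038 for all tested genes and -0.030 for the 428 other tested genes of chromosome 15. In 23 members the highest cKO library was below the lowest Ctrl library (18.4% of members; 7.1% of all tested genes), and in 4 the groups were separate in the other direction (3.2%; 3.89%). Within same-numbered pairs, 44 members were lower in all 3 (35.2%; 18.5% of all tested genes) and 9 higher in all 3 (7.2%; 11.5%). An unadjusted limma p under 0.05 was found for 21 members, against 6.02% of all tested genes. In limma, with p-values adjusted by Benjamini-Hochberg across the whole tested table, 3 members passed an adjusted p of 0.05, all lower in cKO: Oplah, Smpd5 and Gpaa1. They were 2.4% of members, against 0.459% of all tested genes in the lower direction, 0.204% in the higher and 0.663% in both. With the replicate number as a block, 10 members passed, 8 lower and 2 higher (8.0% of members; 2.87% of all tested genes in both directions, 1.64% lower and 1.24% higher). The 7 added were Apol7e, Myh9, Ncf4, Ndrg1 and Mfng among the lower and Sla and Apol7b among the higher. With replicates 1 and 2 alone 9 members passed, 8 lower and 1 higher, against 1.85% of all tested genes, and 39 were lower without overlap, against 20.5%. DESeq2 also passed 9 (background 4.72% of the genes for which it gave an adjusted p). The quasi-likelihood test of edgeR passed 1, Oplah (background 0.261%), and 9 with the block (background 2.99%).

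**Figure D1:**
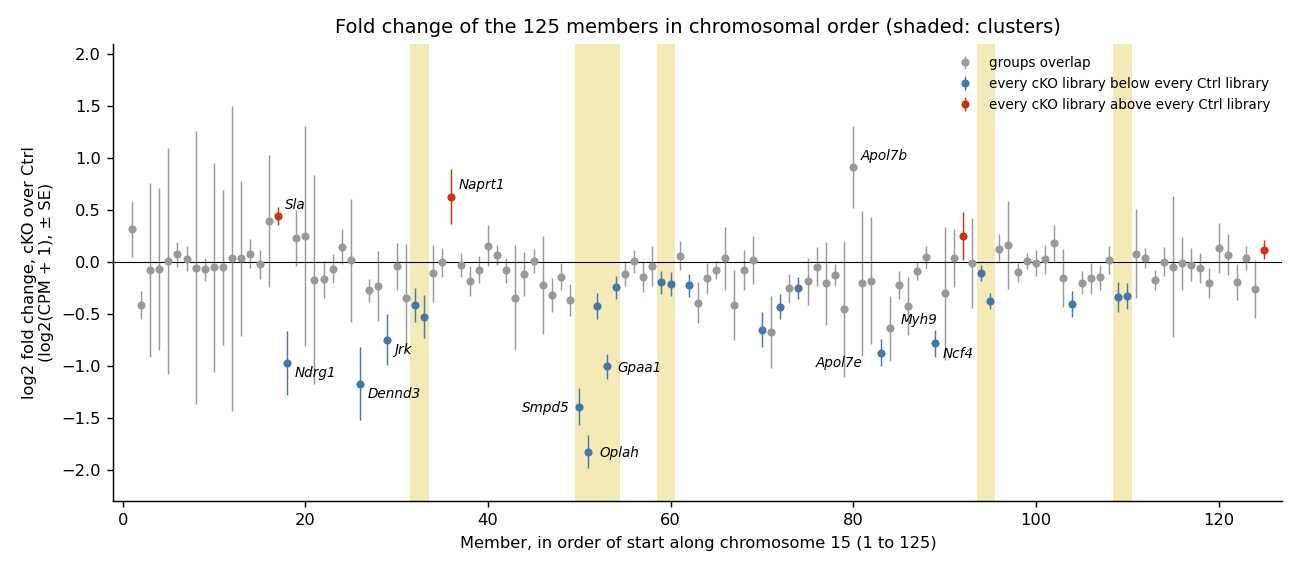
The log2 fold change of each of the 125 members (vertical axis, cKO over Ctrl on the log2(CPM + 1) scale, bars are the standard error) is plotted in the order of their starts (horizontal axis). Blue points are the 23 members whose cKO libraries all lie below the Ctrl libraries, red points the 4 whose cKO libraries all lie above, grey points the rest, and yellow bands the 5 clusters.

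The megabase that held the most members also held 11 of the 23 members lower without overlap. Between 76 and 77 megabases lay 36 of the 125 members. Of these 36, 31 had a fold change below 0, against 59.0% of all tested genes. In 11 of them the groups did not overlap, all lower, against 7.1% of all tested genes that were lower without overlap. The median over the 36 was -0.21. From 77 to 78 megabases 8 of 9 members were lower (median -0.22), while from 78 to 79 megabases 7 of 15 were lower (median 0.0083). These genes are rich in G and C. The median GC content was 55.0% over members and 57.6% over the 36 at 76 to 77 megabases, against 48.0% over all tested genes. In same-numbered pairs the median log2 ratio of the 36 genes was -0.097 in pair 1, -0.13 in pair 2 and -0.45 in pair 3. Among the 3893 tested genes of highest GC the median was 0.0069, -0.050 and -0.13 in these pairs. After a correction for GC content and length, added after the data were seen, the median of members was -0.024 and that of all genes 0.013. In that correction 16 members were lower without overlap, against 3.85% of all tested genes. Higher without overlap were 8 members, against 4 in the main setting, and the share of all tested genes in that direction was not computed. With the correction 1 member, Oplah, passed (background 0.154%), and 10 with the block (background 3.61%). With TMM scaling 17 members were lower without overlap, against 5.28%. What the megabase-wide shift owes to GC content and replicate 3 was not tested further.

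Clusters were defined as 2 or more successive members whose groups did not overlap in the same direction. They were found in the values and are described without a test. There were 5 clusters, all lower in cKO, with 13 genes (10.4% of members), and 14 non-overlapping members stood alone. Over the 13293 tested protein-coding genes of the genome, 2.53% lay in such a cluster, and 0.12% in 1 of at least 5 genes. The 5 clusters were Zfp41 with Top1mt; Smpd5, Oplah, Exosc4, Gpaa1 and Cyc1; Bop1 with Hsf1; Cyth4 with Mfng; and Pick1 with Pla2g6. Only the 5-gene cluster held members that passed the test without the block; Mfng passed with it. With TMM scaling 3 clusters remained (Zfp41 with Top1mt, Smpd5 with Oplah, Pick1 with Pla2g6), and with the GC and length correction 3 others or parts of them (Smpd5 with Oplah, Gpaa1 with Cyc1, Apol7e with Myh9).

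The 5-gene cluster spans chr15:76294434-76345934, a stretch of 51.5 kilobases in which the size of the change varied widely and not in order of position. Oplah and then Smpd5 had the largest fold changes of the 125 members, Gpaa1 came next within the cluster, and Exosc4, which lies between Oplah and Gpaa1, and Cyc1 at the distal end differed less. The median log2 fold change of the 5 genes was -1.01.

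Oplah (ENSMUSG00000022562, chr15:76296597-76328015, minus strand) encodes 5-oxoprolinase, which turns 5-oxoproline into glutamate in the gamma-glutamyl cycle of glutathione. It was at 46.5, 52.3 and 69.3 CPM in the Ctrl libraries and at 14.9, 15.04 and 14.6 CPM in the cKO libraries. The cKO libraries lay within a narrow band far below the lowest Ctrl library. The mean fell from 56.0 ± 11.9 to 14.8 ± 0.226 CPM (SD, n = 3 each), 26.5% of Ctrl, with a log2 fold change of -1.83 (SE 0.160; limma adjusted p = 0.00827, and 0.00028 with the block). It passed in each of the 14 other settings with whole replicate pairs, and with a single library removed in 4 of 6; the adjusted p was 0.0731 when Ctrl replicate 2 was removed and 0.0545 when cKO replicate 2 was.

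Smpd5 (ENSMUSG00000071724, chr15:76294434-76296896, plus strand) encodes a sphingomyelinase described in mitochondria. Its values were 124, 128 and 191 CPM in Ctrl and 56.9, 58.2 and 49.0 CPM in cKO. The groups were well apart, with Ctrl replicate 3 above the other 2 Ctrl libraries. The mean fell from 148 ± 37.7 to 54.7 ± 5.02 CPM (SD, n = 3 each), 37.0% of Ctrl, with a log2 fold change of -1.39 (SE 0.180; limma adjusted p = 0.0300, and 0.00214 with the block). Within pairs 1, 2 and 3 the log2 ratios were -1.11, -1.12 and -1.95. With a single library removed it passed only when that was Ctrl replicate 3 (adjusted p = 0.0400). The adjusted p was 0.0919 or 0.116 when Ctrl replicate 1 or 2 was removed, and 0.0812, 0.129 or 0.0759 when cKO replicate 1, 2 or 3 was.

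Gpaa1 (ENSMUSG00000022561, chr15:76331231-76334907, plus strand) encodes a subunit of the transamidase that attaches GPI anchors to proteins in the endoplasmic reticulum. It was at 161, 184 and 219 CPM in Ctrl and at 89.1, 93.4 and 94.2 CPM in cKO. As with Oplah, the cKO libraries were close together and all below Ctrl. The mean fell from 188 ± 29.3 to 92.2 ± 2.74 CPM (SD, n = 3 each), 49.1% of Ctrl, with a log2 fold change of -1.01 (SE 0.123; limma adjusted p = 0.0250, and 0.000741 with the block). With a single library removed it kept its direction and did not pass. The adjusted p was then 0.0557, 0.149 or 0.0613 for Ctrl replicate 1, 2 or 3, and 0.0837, 0.128 or 0.0538 for cKO replicate 1, 2 or 3.

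Exosc4 and Cyc1 did not pass the test in either fit. Exosc4 (chr15:76327397-76330677, plus strand), a core subunit of the RNA exosome, was at 89.5, 84.9 and 97.4 CPM in Ctrl and at 62.7, 61.4 and 79.1 CPM in cKO. All cKO libraries were below all Ctrl libraries, with the smallest difference in replicate 3. The log2 fold change was -0.42 (SE 0.123; limma adjusted p = 0.458, and 0.0543 with the block), and with replicates 1 and 2 alone it passed (-0.48, adjusted p = 0.0349). Cyc1 (chr15:76343523-76345934, plus strand), cytochrome c1 of respiratory complex III, was at 186, 196 and 229 CPM in Ctrl and at 161, 167 and 186 CPM in cKO. Ctrl replicate 1 and cKO replicate 3 almost met. The log2 fold change was -0.24 (SE 0.109; limma adjusted p = 0.883, and 0.202 with the block).

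**Figure D2:**
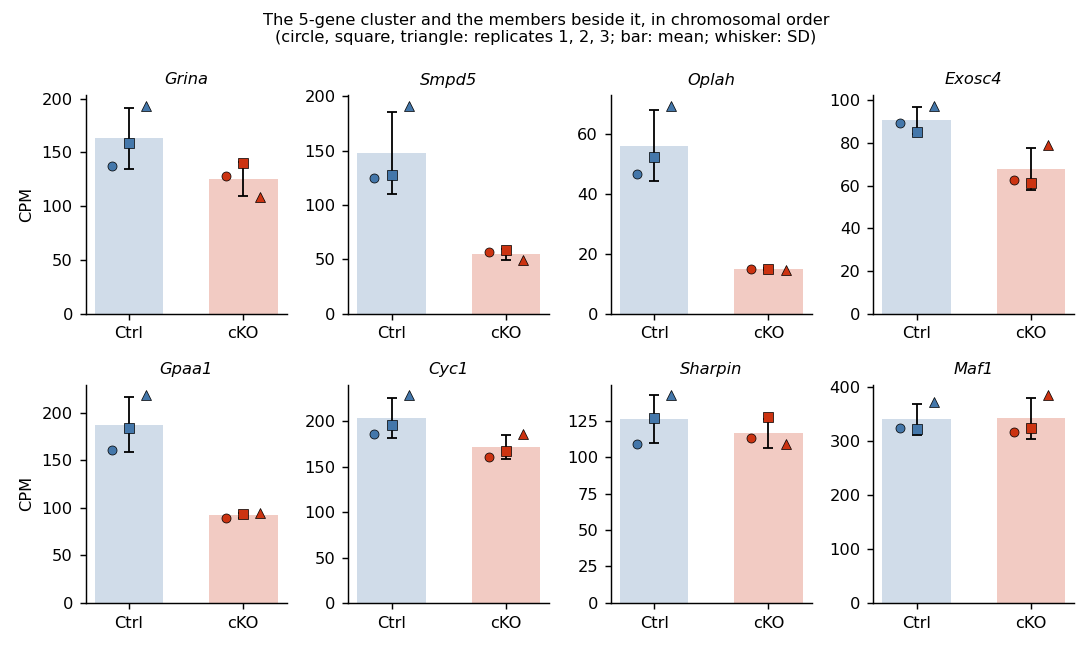
CPM (vertical axes, each from 0) of the 5 cluster genes and the members beside them in each library; circles, squares and triangles are replicates 1, 2 and 3, bars group means and whiskers the SD. Oplah, Smpd5 and Gpaa1 lie at 26.5%, 37.0% and 49.1% of the Ctrl mean in cKO, Exosc4 at 74.8% and Cyc1 at 84.2%, while the groups overlap for Grina, Sharpin and Maf1.

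The members on either side had groups that overlapped. Grina, a membrane protein of the TMBIM family that lies proximal to Smpd5, was at 138, 159 and 194 CPM in Ctrl and at 128, 140.2 and 109 CPM in cKO. Its log2 fold change of -0.37 (SE 0.153) was larger than that of Cyc1 (-0.24), and its groups overlapped only because cKO replicate 2 was above Ctrl replicate 1. Without Ctrl replicate 1 the run of separate genes also took in Grina, and without cKO replicate 2 Grina, Parp10 and Plec. The pair log2 ratios of Grina were -0.11, -0.18 and -0.82, so that most of its difference was in replicate 3. Sharpin, a subunit of the linear ubiquitin ligase complex and the next member after Cyc1, was at 109, 127 and 142 against 113, 127 and 109 CPM. Maf1, a repressor of RNA polymerase III, followed with 325, 323 and 374 against 317, 324 and 386 CPM, a log2 fold change of 0.0054. The neighbours were chosen for their position.

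Arrangement differed from step to step inside the cluster. Smpd5 and Oplah meet tail to tail and overlap by 300 bases, of which 296 are exonic in both. Oplah and Exosc4 start head to head and overlap by 619 bases, 385 of them exonic in both, so that their starts are 618 bases apart. Exosc4 and Gpaa1 lie on the same strand 553 bases apart, and Gpaa1 and Cyc1 8615 bases apart with a ribosomal protein pseudogene, Rps6-ps1 (mean 1.53 CPM), between them. Strand-specific counting was not stated for these data, so reads from the shared bases of Smpd5 and Oplah, or of Oplah and Exosc4, can have been dropped or given to either gene. No overlap of Gpaa1 with another gene listed in this stretch was found.

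**Figure D3:**
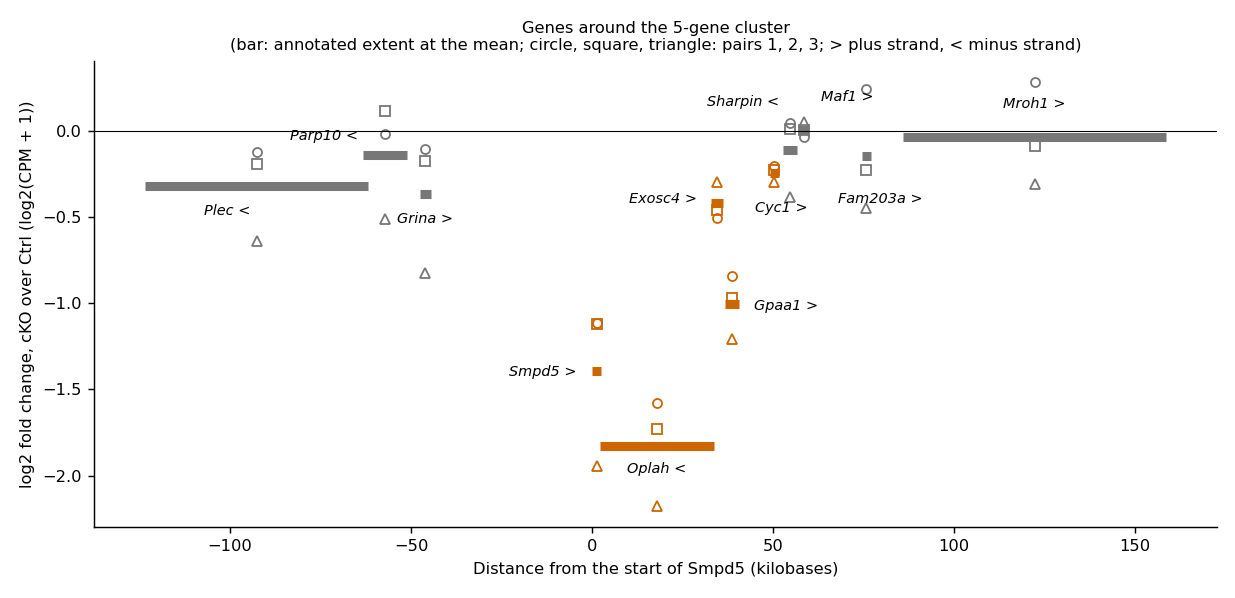
Genes around the 5-gene cluster by distance from the start of Smpd5 (horizontal axis, kilobases) and log2 fold change (vertical axis); a bar is the annotated extent at the fitted value, circles, squares and triangles are pairs 1, 2 and 3, and orange marks the cluster. In order of start the cluster values are -1.39 (Smpd5), -1.83 (Oplah), -0.42 (Exosc4), -1.01 (Gpaa1) and -0.24 (Cyc1), and Maf1 is at 0.0054. The pair 3 ratio lies below the other 2 in every gene shown, inside and outside the cluster, except Exosc4 and Maf1.

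In the authors' deposited table Oplah (log2 fold change -1.86, adjusted p = 4.74e-12), Smpd5 (-1.39, 4.37e-07) and Gpaa1 (-0.96, 0.00118) were the 3 members marked as lower. Apol7e (-0.81, 0.0294) was the only other member past 0.05 there, and no member was marked as higher.

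The apolipoprotein L genes lie about 1 megabase further on. They form a duplicated family whose human relatives include a secreted trypanosome-killing protein. Apol7e (ENSMUSG00000071716, chr15:77698889-77719288, plus strand) was at 217, 225 and 211 CPM in Ctrl and at 137, 125 and 97.1 CPM in cKO. All 3 cKO libraries were far below the lowest Ctrl library. The mean was 218 ± 6.75 CPM in Ctrl and 119.6 ± 20.3 in cKO (SD, n = 3 each), 54.9% of Ctrl. In limma the log2 fold change was -0.87 (SE 0.134; limma adjusted p = 0.0547, and 0.00225 with the block, where it passed). Without the block it was close to the threshold: it passed with TMM scaling (adjusted p = 0.0340) and, of the 6 removals of a single library, only without cKO replicate 3 (-0.73, adjusted p = 0.0241). The other 5 removals gave adjusted p-values of 0.0600 to 0.291.

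Apol7b (ENSMUSG00000068252, chr15:77422210-77447492, minus strand) went the other way at far lower levels. It was at 4.995, 7.99 and 3.17 CPM in Ctrl and at 11.1, 15.6 and 6.52 CPM in cKO. The groups overlapped, since cKO replicate 3 was below Ctrl replicate 2, but each cKO library was above the Ctrl library of its number by a log2 ratio of 1.01, 0.88 and 0.85. Without the block the log2 fold change was 0.91 (SE 0.399; limma adjusted p = 0.872), and it rose with the block (adjusted p = 0.0205). The annotated transcripts of Apol7b and Apol7e are 99.3% identical over 2208 bases, so the assignment of reads between them is uncertain. Their sum was 221.5, 233 and 215 CPM in Ctrl and 148, 141 and 104 CPM in cKO, so that the sum of the pair in cKO was 58.6% of that in Ctrl. The other 2 members of the family, Apol10a and Apol10b, had means of 1.22 and 1.29 CPM and log2 fold changes of -0.20 (SE 0.700) and -0.18 (SE 0.612).

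Myh9 (chr15:77760587-77842175, minus strand), the heavy chain of non-muscle myosin IIA, follows Apol7e among the members. It was at 852, 1012 and 592 CPM in Ctrl and at 660.1, 629 and 327 CPM in cKO. The groups overlapped because Ctrl replicate 3 was below cKO replicates 1 and 2, and the pair log2 ratios were -0.37, -0.69 and -0.86. On average the log2 fold change was -0.64 (SE 0.314; limma adjusted p = 0.995), and it fell with the block (adjusted p = 0.00942). Apol9a and Apol9b, left out by name, flank these genes. Apol9b, between Apol7e and Myh9, was at 45.4, 39.0 and 34.9 CPM in Ctrl and at 0.243, 0.0238 and 0 CPM in cKO, and Apol9a at 11.8, 14.1 and 12.2 against 0.243, 0.119 and 0.308 CPM.

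**Figure D4:**
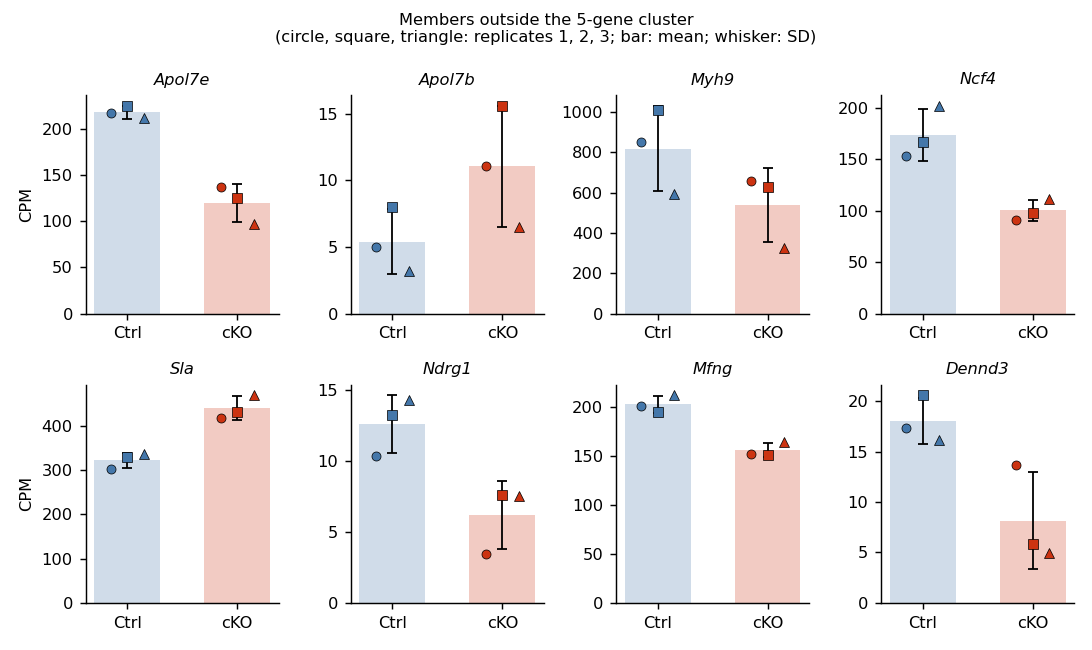
CPM (vertical axes, each from 0) in each library of 8 members outside the 5-gene cluster; circles, squares and triangles are replicates 1, 2 and 3, bars group means and whiskers the SD. The cKO points all lie below the Ctrl points for Apol7e, Ncf4, Ndrg1, Mfng and Dennd3 and above them for Sla, while the groups overlap for Apol7b and Myh9.

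Signalling genes that passed with the block went both ways. Ncf4 (ENSMUSG00000071715, chr15:78244801-78262580, plus strand), the p40phox subunit of the phagocyte NADPH oxidase, was at 153, 167 and 202 CPM in Ctrl and at 91.3, 97.5 and 112 CPM in cKO. The groups were apart and the pair log2 ratios close to each other (-0.74, -0.77 and -0.85). The mean was 174 ± 25.2 CPM in Ctrl and 100.2 ± 10.5 in cKO (SD, n = 3 each), 57.7% of Ctrl, with a log2 fold change of -0.78 (SE 0.132; limma adjusted p = 0.0795). It fell with the block (adjusted p = 0.00132).

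Sla (ENSMUSG00000022372, chr15:66780819-66831829, minus strand) encodes the Src-like adaptor, which dampens T cell receptor signalling. It was at 303, 329 and 336 CPM in Ctrl and at 417, 432 and 469.8 CPM in cKO. The lowest cKO library was above the highest Ctrl library. The mean was 323 ± 17.1 CPM in Ctrl and 439.5 ± 27.3 in cKO (SD, n = 3 each), 136% of Ctrl, with a log2 fold change of 0.44 (SE 0.0854; limma adjusted p = 0.123). It rose with the block (adjusted p = 0.0128). Sla lies wholly inside the thyroglobulin gene Tg on the opposite strand and shares no exonic base with it, and Tg had a mean of 5.25 CPM.

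Ndrg1 (chr15:66929321-66969640, minus strand), a stress-responsive gene linked to T cell anergy, was at 10.4, 13.2 and 14.3 CPM in Ctrl and at 3.47, 7.64 and 7.55 CPM in cKO. The groups did not overlap, and the lowest value was that of cKO replicate 1. It had a log2 fold change of -0.97 (SE 0.309; limma adjusted p = 0.538), and it fell with the block (adjusted p = 0.0273). Mfng (chr15:78755882-78773475, minus strand), manic fringe, a glycosyltransferase that modifies Notch receptors, was at 200.4, 194 and 212 CPM in Ctrl and at 152, 151 and 164 CPM in cKO. The groups were apart with nearly equal pair log2 ratios of -0.39, -0.37 and -0.37. Its log2 fold change was -0.38 (SE 0.0805; limma adjusted p = 0.179), and it fell with the block (adjusted p = 0.0401), though not with the block after TMM scaling (adjusted p = 0.101), after GC and length correction (0.138) or in edgeR (0.105).

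Dennd3 (chr15:73512560-73572242, plus strand), an exchange factor for a Rab GTPase, was at 17.3, 20.6 and 16.2 CPM in Ctrl and at 13.7, 5.88 and 4.92 CPM in cKO. The groups did not overlap, but cKO replicate 1 lay well above the other 2 cKO libraries. Its log2 fold change was -1.17 (SE 0.349; limma adjusted p = 0.474, and 0.0543 with the block). With the block it passed after TMM scaling (adjusted p = 0.0227) and after the GC and length correction (0.0222). Without the block it passed in 1 of the 6 removals of a single library, that of cKO replicate 1 (-1.57, adjusted p = 0.0475), and the other 5 gave adjusted p-values of 0.562 or more. Myc (chr15:61985341-61990374, plus strand) was at 344, 294 and 350.3 CPM in Ctrl and at 220.2, 229 and 296 CPM in cKO. The groups met at Ctrl replicate 2 and cKO replicate 3. Its log2 fold change was -0.41 (SE 0.138; limma adjusted p = 0.582, and 0.0601 with the block), and with replicates 1 and 2 alone it passed (-0.50, adjusted p = 0.0297).

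Other well-known genes of lymphocytes in the stretch differed by less than their spread. Lgals1, which encodes the glycan-binding protein galectin-1, was at 286, 255 and 289 CPM in Ctrl and at 271, 238 and 322 CPM in cKO. Apobec3, a cytidine deaminase that restricts retroviruses, was at 425, 457 and 520.3 against 483, 522 and 434 CPM. Ptk2, the focal adhesion kinase, was at 13.4, 12.6 and 3.25 against 14.7, 9.37 and 4.29 CPM, with both replicate 3 libraries low. The 95% intervals of the log2 fold change were -0.31 to 0.29 for Lgals1, -0.23 to 0.30 for Apobec3 and -1.39 to 1.42 for Ptk2. The sign of the Lgals1 and Ptk2 values changed with the scaling or the count model, as did that of Apobec3 with the library left out.

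The remaining clusters were pairs with small differences, in which only Mfng passed a test. Bop1, a factor of ribosome assembly, and Hsf1, the heat shock transcription factor, start head to head with 176 bases between their starts. Bop1 was at 165, 167 and 177 CPM in Ctrl and at 153, 163 and 129 CPM in cKO, and Hsf1 at 94.6, 93.7 and 112 against 90.7, 91.2 and 76.0 CPM. In both genes the gap between groups was small in replicates 1 and 2 and the lowest value that of cKO replicate 3. The log2 fold changes were -0.20 (SE 0.107) and -0.22 (SE 0.116), with adjusted p-values of 0.489 and 0.528 with the block.

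Zfp41, a zinc finger protein, and Top1mt, the mitochondrial type I topoisomerase, lie tail to tail with 31734 bases and a pseudogene between them. Zfp41 was at 11.6, 13.4 and 13.7 CPM in Ctrl and at 8.98, 10.8 and 8.61 CPM in cKO, and Top1mt at 11.3, 13.3 and 14.1 against 9.88, 9.68 and 6.65 CPM. In both genes the groups did not overlap and the lowest value was that of cKO replicate 3. The log2 fold changes were -0.41 (SE 0.167; block adjusted p = 0.322) and -0.53 (SE 0.205; block adjusted p = 0.287) in limma.

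Pick1, a PDZ and BAR domain protein of membrane traffic, and Pla2g6, a calcium-independent phospholipase A2, are also tail to tail, 29553 bases apart. Pick1 was at 30.9, 30.5 and 40.4 CPM in Ctrl and at 25.01, 29.0 and 25.7 CPM in cKO, and Pla2g6 at 26.6, 26.9 and 25.4 against 19.1, 23.9 and 19.6 CPM. In each gene cKO replicate 2 came closest to Ctrl. Both log2 fold changes were -0.33 (SE 0.143 and 0.127), with block adjusted p-values of 0.367 and 0.340 in limma. Cyth4, a cytohesin that activates ARF GTPases, lies 133862 bases before Mfng and was at 576, 571 and 636 against 558, 549.6 and 552 CPM, a log2 fold change of -0.10 (SE 0.0771; adjusted p = 0.670 with the block).

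Of the 14 non-overlapping members outside the clusters, 10 were lower and 4 higher. The 4 higher were 3.2% of all members, close to the 3.89% of all tested genes. Of all tested genes, inside or outside clusters, 7.1% were lower without overlap. The higher were Sla, Naprt1, Kctd17 and Pdgfb. Naprt1, the first enzyme of NAD synthesis from nicotinic acid, was at 5.08, 3.38 and 6.53 CPM in Ctrl and at 7.66, 8.23 and 8.28 CPM in cKO (log2 fold change 0.63, SE 0.267; limma block adjusted p = 0.203). Kctd17, an adaptor of a cullin ubiquitin ligase, was at 4.88, 5.004 and 4.76 against 6.73, 5.33 and 6.02 CPM. Pdgfb, a growth factor chain, was at 45.1, 40.1 and 44.8 against 46.1, 48.1 and 46.9 CPM. Neither passed, with log2 fold changes of 0.25 (SE 0.228) and 0.12 (SE 0.0926).

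The lower were Apol7e, Ncf4, Ndrg1 and Dennd3, given before, and 6 genes without a call in limma, which are named after their values were seen. Jrk, a DNA-binding protein of transposon origin, was at 11.7, 11.4 and 12.2 CPM in Ctrl and at 5.55, 9.52 and 5.35 CPM in cKO (log2 fold change -0.75, SE 0.244). Mfsd3, a predicted transporter, was at 13.2, 12.7 and 16.6 against 7.91, 8.90 and 8.99 CPM (-0.65, SE 0.171). In Mfsd3 the 3 cKO libraries lay close together and below Ctrl, and its block adjusted p was 0.0833; it shares 422 exonic bases with Recql4 on the opposite strand. Lrrc14 (-0.43), Gcat, an enzyme of threonine breakdown (-0.40), Zfp251 (-0.25) and Fbxl6, an F-box protein (-0.23), differed less. Lrrc14 lies on the opposite strand to Lrrc24 and shares 1031 exonic bases with it. DESeq2 on the recovered reads passed Lrrc14 and Mfsd3 in addition.

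Grouped by role, members of every list had a negative median. Mitochondria and metabolism had 16 members, 12 with a fold change below 0 and a median of -0.23, and it held 2 of the 3 members that fell, Oplah and Gpaa1; Gpaa1 works in the endoplasmic reticulum. It held 6 members lower without overlap and 1 higher, beside 18.4% and 3.2% of all members and 7.1% and 3.89% of all tested genes. Oplah, Gpaa1 and Cyc1 of the 5-gene cluster are among the 6. Lower without overlap were also 3 members of the immune list, 3 of transcription, 2 of RNA processing, 3 of cytoskeleton and 6 in no list. Higher without overlap were 2 of the immune list and 1 in no list. Immune receptors, signalling and defence had 19 members, 14 below 0 and a median of -0.069; none passed without the block, and 4 did with it (Ncf4, Ndrg1 and Mfng lower, Sla higher), beside 2.87% of all tested genes. Transcription, chromatin and DNA repair had 19 members, 14 below 0 and a median of -0.15, and RNA processing and translation 14, with 9 below 0 and a median of -0.11. None of these 33 members passed in either fit. Cytoskeleton, adhesion and membrane traffic had 22 members, 12 below 0 and a median of -0.086, of which Myh9 passed with the block. The 35 members in no list, 26 below 0 with a median of -0.079, included Smpd5, Apol7e and Apol7b. The median over all tested genes was -0.038.

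**Figure D5:**
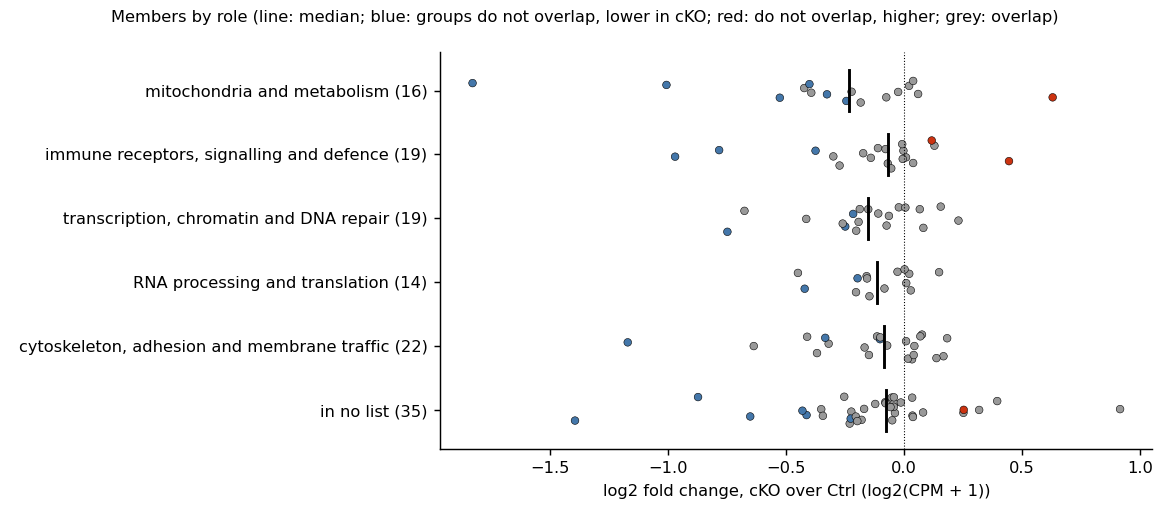
The log2 fold change (horizontal axis, cKO over Ctrl on the log2(CPM + 1) scale) of each member by role list, with the number of members in brackets and a black line at the median. Blue points are members lower without overlap and red points members higher without overlap; medians run from -0.23 in mitochondria and metabolism to -0.069 in immune receptors, signalling and defence.

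Genes left out by name lie between the members and went in both directions. Ly6a, Ly6c1 and Ly6c2, surface proteins of lymphocytes, formed a run of 3 neighbours higher in cKO without overlap (log2 fold changes 0.68, 1.90 and 1.04), none of which passed limma without the block, while all 3 rose with it (adjusted p = 0.00308, 0.00695 and 0.000741). Il2rb and Rac2 had log2 fold changes of 0.34 and 0.23, and Il2rb rose with the block (adjusted p = 0.0166). With the left-out genes included the stretch held 8 clusters, the added ones being the Ly6 run, Arhgap39 with Zfp251, and Apol7e with Apol9b.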

How the data were processed

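Trimmomatic 0.33, STAR 2.5.2, HTSeq 0.6.1, edgeR and build mm10 are named, per the submitters' processing notes; their options are not given in the sources used here. The authors' deposited table holds CPM per library, a log2 fold change, average log2 CPM, a likelihood-ratio score, p-value, adjusted p-value and marks, per the file headers. Its columns WT and KO were taken as Ctrl and cKO. Every CPM value was a whole multiple of 1 read (100% of values whole, tolerance 0.01), so reads were recovered for edgeR and DESeq2. Totals were 28832779 to 68092478 reads; without molecular identifiers, depth covers counting error only.

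The main test was limma 3.58.1 (R 4.3.3) on log2(CPM + 1) with trend and robust moderation. It covered 15691 genes of mean 1 CPM or more, at a Benjamini-Hochberg threshold of 0.05. The fit was also run on simulated counts with a set spread and means shared by same-numbered libraries. That run cannot check the spread or the pairing of the libraries used here. Without the block, a p-value weighs the group difference against the spread of libraries within a group. With the block, the difference is weighed against the spread left after replicate number. Same-numbered libraries deviated together (correlations 0.855, 0.687 and 0.924, all over 0.1), so the numbers were treated as pairs and given as a block. Libraries 1 and 2 also correlated across numbers, at 0.718 for Ctrl 2 with cKO 1 and 0.578 for Ctrl 1 with cKO 2. Deviations were taken from group means, and both replicate 3 libraries stood apart. Libraries 1 and 2 then deviate alike under either pairing. The check thus cannot tell how libraries 1 and 2 pair, and results with the block rest on pairing by number. The labels do not say what a number shares. Other settings were edgeR 4.0.16 quasi-likelihood, DESeq2 1.42.0, TMM and upper quartile scaling, pseudocounts 0.1 and 5, other filters, single libraries left out, and GC and length correction (15571 of 15691 genes, added after seeing the data).

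Named members are those that passed in either fit, all cluster genes, the 6 largest falls and rises without overlap at 5 CPM or more (only 4 rises existed), and Myc, Sla, Ptk2, Myh9, Lgals1, Apobec3 and Cyth4 (also Foxh1, which is not a member) whatever their result. The members, lists and rules were chosen with earlier results of these data known. Overlaps were sought among the genes listed in the stretch, by their deposited positions. Shared exonic bases were taken from GENCODE M21, which holds all 125 members, 54 of them with the same start and end. Copies were compared with blastn 2.17.0.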

Additional observations from a re-analysis of the deposited data

How the results depend on the processing

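The fold changes of Oplah, Smpd5, Gpaa1, Apol7e, Ncf4, Sla, Myh9, Apol7b, Ndrg1, Mfng, Dennd3, Exosc4 and Myc kept their sign in the 20 alternatives, whereas which of them passed depended on the setting. Members that passed numbered 3 in the main setting. They were 10 with the replicate block, 10 with TMM scaling and the block, 10 with GC and length correction and the block, 9 with edgeR's quasi-likelihood test and the block, 9 with DESeq2, 9 with replicates 1 and 2 only, 5 at a mean of 5 CPM or more, and 1 each with edgeR without the block and with GC correction without the block. Leaving out single libraries gave 0 to 2, with 0 without Ctrl replicate 2 and without cKO replicate 2 and 1 without Ctrl replicate 1. Over all genes 104 passed in the main setting, 451 with the block, 513 with TMM and the block, 562 with GC and the block, 469 with edgeR and the block, 554 with DESeq2, 291 with replicates 1 and 2 only, 41 with edgeR, 24 with GC correction, and 14 to 85 without single libraries. Higher calls were 30.8% of these in the main setting, 43.0% with the block, 47.6% with TMM and the block, 48.8% with edgeR and the block, 50.9% with DESeq2, 52.1% with GC and the block and 16.7% with GC alone.

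Members lower without overlap numbered 23; they were 39 with replicates 1 and 2 only, where 20.5% of all genes were, and 27 to 35 without single libraries, where 9.74% to 14.3% of all genes were, with 35 without cKO replicate 3 (13.1%); fewer libraries make separation easier. Clusters numbered 5, and 3 with TMM scaling, 3 with GC correction, 14 with replicates 1 and 2 only, 8 with the left-out genes, 2 when built from calls with the block (Smpd5 with Oplah, Apol7e with Myh9) and 6 to 10 without single libraries. The run from Smpd5 to Cyc1 was whole in each of those 6 and with replicates 1 and 2 only. Removing libraries cannot undo a separation of groups, so those settings could not have broken the run. With TMM only Smpd5 and Oplah remained of it, and with GC correction Smpd5 with Oplah and Gpaa1 with Cyc1. Tgfbr2 did not pass with edgeR (-0.67, adjusted p = 0.0620) or GC correction (-0.64, adjusted p = 1); without single libraries it lay between -0.75 and -0.67 and passed only without cKO replicate 3 (adjusted p = 0.0349). Lgals1 turned positive with TMM (0.038, also with the block), upper quartile scaling (0.021), edgeR (0.054, and 0.038 with the block), DESeq2 (0.061) and GC correction (0.054, also with the block), and lay between -0.12 and 0.097 without single libraries. Ptk2 turned negative with a pseudocount of 5 (-0.0078), edgeR (-0.026), DESeq2 (-0.013) and replicates 1 and 2 only (-0.13), and lay between -0.56 and 0.44 without single libraries, as Apobec3 did between -0.028 and 0.12. DESeq2 gave no adjusted p for 13 members. With 3 libraries a group, a value that did not pass shows no equality, and 12 members with 0 reads in a replicate 3 library have wide intervals.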

Other observations

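Runs of at least 4 successive protein-coding genes whose groups did not overlap in the same direction were rare across the genome, and the one from Smpd5 to Cyc1 was among 6. A run of 6 on chromosome 7 held Ifitm1, Ifitm2 and Ifitm3, interferon-induced transmembrane proteins, with Athl1, B4galnt4 and Pkp3, all lower in cKO. A run of 5 on chromosome 4 held Zfp683, which encodes the transcription factor Hobit, with Aim1l, Cd52, Ubxn11 and Sh3bgrl3, also lower. A run of 4 on chromosome 11 (Ssh2, Ankrd13b, Git1 and Trp53i13) was lower, while runs of 4 on chromosome 6 (Gimap4, Gimap6, Gimap7 and RP24-315D19.2) and on the X chromosome (Tmsb15l, Tmsb15b1, Slc25a53 and Zcchc18) were higher. These runs were found in the values and have no test.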
